A study of Rattus norvegicus with 93 samples.

Results

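The tissue that filled 4 mm calvarial defects was compared between day 7 and the pooled days 10 and 14 after injury. A calvarial defect is a round hole cut through the skull roof of a rat, and a 4 mm hole is the smaller of the sizes in this series, the other being 8 mm. Members were chosen by title: 5 arrays of day 7, 4 of day 10 and 5 of day 14, which makes 14 of the 93 arrays of the series. All animals were male rats of 12 weeks. The dura under the hole was kept, no treatment was given to the defect, and the plug was cut out again with the trephine that had made the hole. Each array holds total RNA of 1 defect, labelled with Cy3 and hybridised to an Agilent whole-genome rat array. The plug therefore holds several tissues at once, and fewer cells of a type and less RNA per cell cannot be told apart.

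A hole in membrane bone closes by a sequence of tissues. A clot and inflammatory cells come first, followed by granulation tissue rich in fibroblasts, macrophages and new vessels covered by pericytes. Osteoblasts at the edge then lay down type I collagen and mineralise it, with osteocalcin as a late product, while osteoclasts resorb and remodel and marrow fills the new spaces.

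Each value is the log2 of a deposited ratio to the probe's median. For 87.8% of probes the median ratio over all 93 arrays was about 1, so that 0 is the median of the series for these. Ratios were floored at 0.01 by the depositors (log2 -6.64), and values at this floor have no order. A gene was called when limma gave an adjusted p (Benjamini-Hochberg over 15974 genes) under 0.05 with the same sign in all 3 scalings: values as deposited, arrays centred on their level, and quantile normalised. Changes, standard errors and adjusted p-values below are those of the values as deposited unless another scaling is named. "Rose" and "fell" are used only of genes called in all 3 scalings.

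The arrays themselves differed between the groups. The level of an array, its median over probes never at the floor, was 0.44 ± 0.09 (SD, n = 5) at day 7 and -0.02 ± 0.49 (n = 9) later, a difference of -0.47 (exact two-sided permutation test over 2002 splits, p = 0.047, adjusted p = 0.075 over 8 array measures). Probes at the floor made up 13.9% at day 7 and 18.8% later (exact permutation p = 0.002, adjusted p = 0.004). On each array 22 to 138 abundant probes kept a fixed distance to each other, so that only a bound is known for them. This shared upper limit lay at 0.13 at day 7 and 1.13 later (exact permutation p = 0.0005, the smallest these splits can give, adjusted p = 0.0013). The distance from array level to upper limit was at most 0.44 at day 7 and at least 0.51 later, without overlap. Replicate 10 of day 10 had the lowest level (-1.03), and replicate 17 of day 14 had the widest interquartile range (1.59). Their part in the results was measured by leaving both out.

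**Figure D1:**
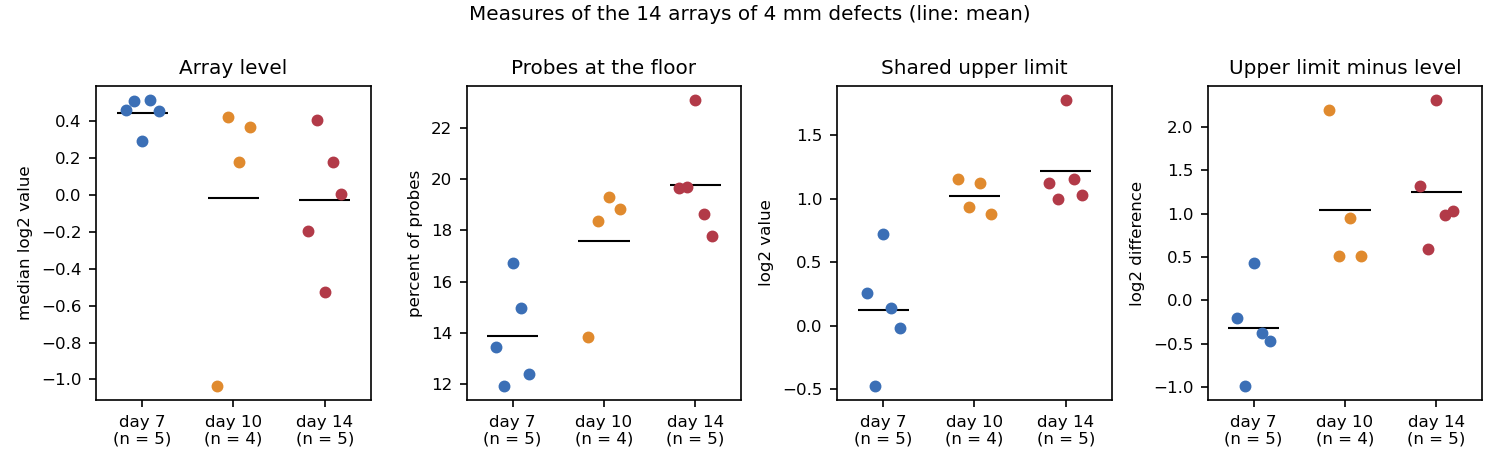
Measures of the 14 arrays of 4 mm defects by day, with each array as a point and the group mean as a line: median log2 value, percent of probes at the floor, shared upper limit (log2) and upper limit minus level (log2). The upper limit of the day 7 arrays lies between -0.47 and 0.73, below all 9 later arrays.

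Between day 7 and days 10 and 14, 14 genes were called, which is 0.0876% of the 15974 tested: 4 rose (0.025%) and 10 fell (0.0626%). The genes that fell include vessel-wall and matrix genes (Rgs5, Gja4, Gjc1, Col12a1, Gpc4) and the phagocyte receptor Mertk. Of 16 endothelium genes 0 were called, and of 11 smooth muscle and pericyte genes 1 was, Rgs5. Their medians were -0.59 and -0.75 as deposited, against -0.58 for all genes. With arrays centred they were -0.03 and -0.28, against -0.04. The genes that rose were Scamp5, B4galnt1, Scaf1 and Or4f14d. For 5 of the 14 the later arrays did not overlap with day 7. Among all genes, 1.70% were lower and 0.131% higher without overlap.

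These calls are few and depend on the analysis. None was made when only the compared groups were fitted or when the distance from array level to upper limit was a covariate, and 1 (Scamp5) was made without both arrays that stand apart. Leaving out single arrays of day 7 gave 7, 2, 2 and 0 calls (replicates 10, 12, 14 and 15). Leaving out replicates 11 or 13 of day 10 gave 28 and 32, and leaving out replicates 15 or 17 of day 14 gave 5 and 1.

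Rgs5, a regulator of G-protein signalling that marks pericytes, stood at 2.23, 2.07, 1.65, 2.34 and 1.65 on the day 7 arrays. The day 10 values were -0.62, 1.36, 1.15 and 0.63, and those of day 14 -1.04, 0.42, -0.75, 0.55 and -0.58. Every later array was below every day 7 array, and day 14 was lower on average than day 10 (-0.28 and 0.63). Rgs5 fell by 1.86 (SE 0.42, adjusted p = 0.013 in limma), a 3.64-fold lower level.

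Gja4 encodes connexin 37, a gap junction protein of endothelium. It read 1.62, 1.63, 1.23, 2.25 and 1.06 at day 7, -0.90, 1.20, 0.80 and 0.53 at day 10, and -0.76, 0.48, -1.15, -0.32 and -0.44 at day 14. Of the 9 later arrays 8 were below all of day 7, the exception being 1 array of day 10. Gja4 fell by 1.62 (SE 0.35, adjusted p = 0.0091 in limma).

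Gjc1 encodes connexin 45, a gap junction protein of smooth muscle and heart. Its day 7 values lay between 1.11 and 1.71, its day 10 values between -0.81 and 1.09 and its day 14 values between -1.94 and 0.32. The groups did not overlap, and Gjc1 fell by 1.48 (SE 0.35, adjusted p = 0.020 in limma).

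The 250 bases before the RefSeq transcription start of Rgs5 and Gja4 (GRCr8), which fell together, are shown with those of the osteocalcin gene Bglap, the late osteoblast product described further on. Capitals mark the RUNX motif AACCACA, searched on both strands (reverse complement TGTGGTT). The Rgs5 window is chr13:84380827-84381076 on the plus strand, that of Gja4 is chr5:144920325-144920574 and that of Bglap is chr2:176137319-176137568, both on the minus strand.
Rgs5: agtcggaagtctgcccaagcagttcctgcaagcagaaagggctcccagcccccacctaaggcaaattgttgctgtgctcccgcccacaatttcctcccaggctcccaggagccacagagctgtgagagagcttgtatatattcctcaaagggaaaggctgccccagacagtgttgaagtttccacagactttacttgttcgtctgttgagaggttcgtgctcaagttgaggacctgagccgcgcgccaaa
Gja4: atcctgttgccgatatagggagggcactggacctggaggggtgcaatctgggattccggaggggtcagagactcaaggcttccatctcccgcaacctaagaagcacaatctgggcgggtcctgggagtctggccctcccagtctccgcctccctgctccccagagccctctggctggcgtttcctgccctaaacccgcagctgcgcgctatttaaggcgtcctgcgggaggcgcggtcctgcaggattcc
Bglap: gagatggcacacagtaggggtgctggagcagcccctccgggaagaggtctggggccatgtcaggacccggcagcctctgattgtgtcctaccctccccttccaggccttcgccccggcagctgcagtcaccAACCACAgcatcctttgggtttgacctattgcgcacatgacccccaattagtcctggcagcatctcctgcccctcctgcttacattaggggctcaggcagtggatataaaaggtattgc
The motif stood once in Bglap and in neither other window, and 4.59% of 33469 promoters of the same length held it. No window of these 3 held a CArG box, found in 1.5% of all promoters. A match describes the letters and is no measure of binding.

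Col12a1, a fibril-associated collagen of dense connective tissue, read 1.04 to 1.97 at day 7, -2.04, 1.5, 0.73 and 0.82 at day 10, and -1.90, 0.35, -2.42, 0.16 and -0.12 at day 14. It fell by 1.93 (SE 0.49, adjusted p = 0.031 in limma), and 8 of 9 later arrays were below all of day 7. A second probe gave -1.59.

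Gpc4, a glypican of the cell surface that binds growth factors, was 0.95 to 1.91 at day 7 and -0.51 to 0.54 at day 10. At day 14 it was -1.15, -1.88, -1.28 and -2.91 on 4 arrays and at the floor on replicate 17. All later arrays were below day 7, and Gpc4 fell by 2.81 (SE 0.57, adjusted p = 0.0053 in limma).

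Mertk, a receptor through which macrophages take up dying cells, was between -0.14 and 1.36 at day 7. It was at the floor on 1 of 4 arrays of day 10 and 4 of 5 of day 14, so that its size rests on the floor (-4.35, adjusted p = 0.0053 in limma). Soat1, which esterifies cholesterol, was at the floor on 1 array of day 10 and 3 of day 14 (-5.01, adjusted p = 0.0053).

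The other genes that fell serve general functions: Wdr1, a helper of cofilin in actin disassembly (-2.43), the splicing factor gene Sf3b2 (-2.10) and Acat1, a thiolase of mitochondria (-1.34). Adjusted p-values were 0.0057, 0.028 and 0.027. Second probes of Wdr1 and Acat1 gave -1.63 and -0.88. That of Sf3b2 gave -0.42, a much smaller difference.

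Scamp5, a membrane protein of secretory vesicles, read -0.33, -1.51, -1.72, -2.10 and -3.84 at day 7. Its day 10 values were 0.22, -0.92, 0.39 and -0.71, and those of day 14 were 0.81, 2.01, 2.36, 1.10 and 0.57. All 5 arrays of day 14 were above day 7, while 2 of day 10 were within its range. Scamp5 rose by 2.55 (SE 0.55, adjusted p = 0.0096 in limma) and was called in 29 of 32 alternatives.

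B4galnt1, a synthase of gangliosides, rose by 2.31 (SE 0.42, adjusted p = 0.0017 in limma). Its day 7 values were spread, from -4.01 to 0.03, and the later ones lay between -0.07 and 1.91. Scaf1, which binds RNA polymerase II, rose by 1.74 (SE 0.43, adjusted p = 0.027), and the olfactory receptor gene Or4f14d by 2.76 (SE 0.76, adjusted p = 0.041).

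**Figure D2:**
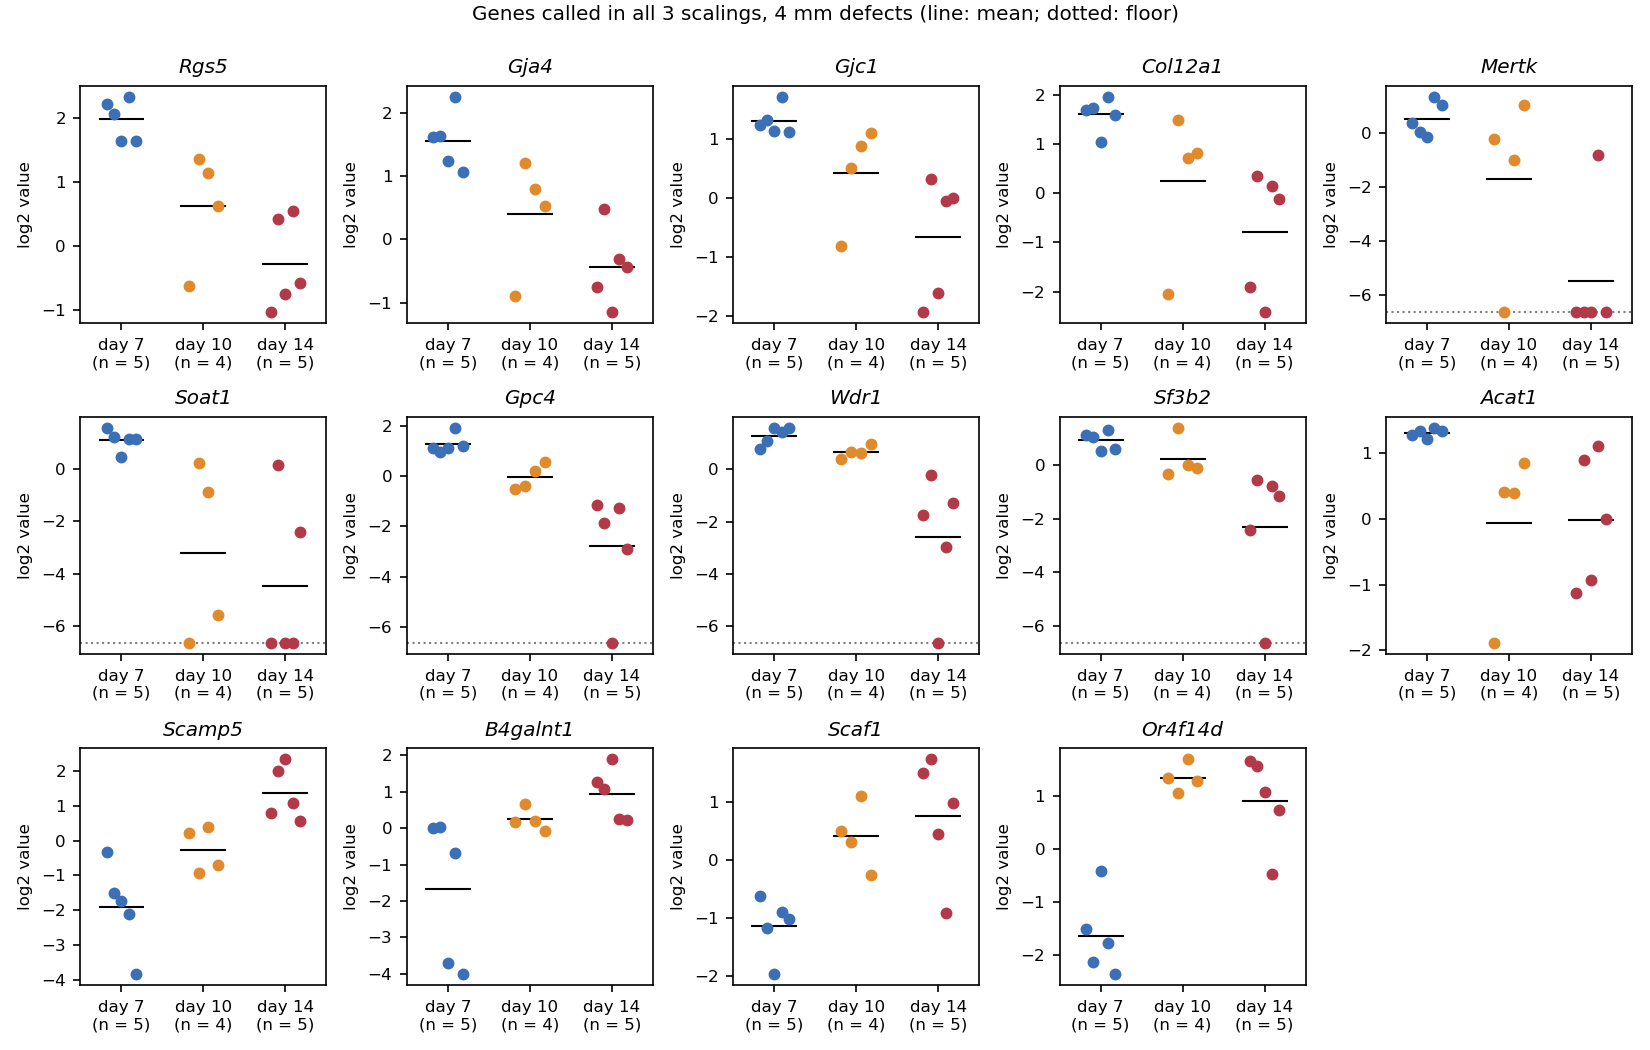
Log2 values of the 14 called genes on each array of 4 mm defects (points) with group means (lines), by day; the dotted line is the floor at -6.64. Rgs5, Gjc1, Gpc4, Soat1 and Acat1 have no overlap between day 7 and later arrays.

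Calls were also made for each later day. Against day 7, 1 gene was called at day 10 (0.00626%) and 120 at day 14 (0.751%), of which 19 rose (0.119%) and 101 fell (0.632%); 75 of the 120 had floor values at day 14. Of the 14 genes, 13 were also called at day 14, a comparison that shares all day 7 and all day 14 arrays with the pooled one. When only the compared groups were fitted the order of the days turned, with 5 calls at day 10 and 1 at day 14. Leaving out replicate 11, 12 or 13 of day 10 gave 23, 6 and 19 calls at day 10, and leaving out replicate 13 of day 7 gave 2. Without both arrays that stand apart day 14 gave 34 calls, without replicate 17 of day 14 it gave 32, and with the distance covariate 12. Without replicate 12, 14 or 15 of day 7 it gave 50, 51 and 59.

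Rad9a, a subunit of a DNA damage clamp, was the gene called at day 10. It was between -0.77 and 0.59 at day 7, at the floor on 3 arrays of day 10 and at -5.78 on the other, and -1.21 to -0.16 at day 14. It fell by 6.52 from day 7 to day 10 (SE 0.64, adjusted p = 5.6e-12 in limma), a size set by the floor.

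Day 14 differed directly from day 10 in 36 genes (0.225%), 9 higher (0.0563%) and 27 lower (0.169%) at day 14. Lcn2, an iron-binding protein of neutrophils and inflamed tissue, read 0.02, 4.92, 0.49 and 0.75 at day 10. On the day 14 arrays it was at the floor on 2 arrays and -2.99, -3.25 and -1.65 on the others (-5.78, adjusted p = 0.00011 in limma). Nfkbiz, an inducible regulator of NF-kappaB, was at the floor on 4 of 5 arrays of day 14 (-6.42, adjusted p = 0.00011), and Vps37b and P2rx7 on all 5. Higher at day 14 were Dlgap3 (7.72, with 3 floor values at day 10) and Cdk18. Cdk18 was -2.26 to -0.83 at day 10 and 0.72 to 2.08 at day 14 (2.95, SE 0.45, adjusted p = 2.1e-05 in limma). Without both arrays that stand apart 6 genes were called. Leaving out replicate 10 or 13 of day 10 gave 17 and 18, and leaving out replicate 15 or 17 of day 14 gave 81 and 13.

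Bone genes varied widely within each day. The day 7 arrays gave -1.48, 3.90, -1.66, 1.42 and 4.46 for Bglap. The day 10 arrays gave 4.77, 1.65, 5.83 and 5.00, and those of day 14 gave -0.84, 6.73, 6.07, 6.73 and 4.01. The groups overlap, and the difference of 3.11 (SE 1.02) missed the threshold as deposited (adjusted p = 0.085 in limma). Alpl, the alkaline phosphatase of osteoblasts, differed by 1.82 (adjusted p = 0.26), Dmp1 of osteocytes by 1.51 (0.39), Ibsp by 0.45 (0.84) and Sp7 by -1.07 (0.73). Sp7 was at the floor on 4 of the 14 arrays and Ibsp and Dmp1 on 1 each, so that their differences rest partly on the floor. None of the 22 genes of osteoblast matrix and mineralization was called in all 3 scalings. Their median difference was 0.51, against -0.58 for all genes, and 0.92 against -0.04 with arrays centred. Of the 22 genes 5 were at the shared upper limit, which itself lay 1.00 higher on the later arrays. Without those 5 the median as deposited was -0.06, against -0.59 for all genes without such members, so that the sign of the list's median rests on them.

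No osteoclast marker was called between day 7 and the pooled later days either. The mean of the osteoclast list per array (13 genes, as deposited) was -0.414 to 1.174 at day 7 and -0.687 to 0.655 at day 10. At day 14 it was -2.199 to -1.143, below every array of both earlier days. Of the 13 genes 5 had floor values among the 14 arrays, so that this mean rests partly on the floor. The list entry Tnfrsf11a was matched by synonym to Zcchc2, a different gene, so that Tnfrsf11a itself is not among the 13. Ctsk, the collagen-degrading protease of osteoclasts, was 0.85 to 2.04 at day 7 and -0.67 to 2.14 later (difference -0.40, adjusted p = 0.56 in limma). Its sign turned with arrays centred (0.064). Acp5 differed by -0.50 (adjusted p = 0.46). Calcr was at the floor on 9 of 14 arrays. Mmp9, a gelatinase of osteoclasts and neutrophils, was 1.04 to 3.06 at day 7, 0.65 to 2.25 at day 10 and -2.24 to 0.47 at day 14. It fell by 3.21 from day 7 to day 14 (adjusted p = 0.00026 in limma), and no day 14 array reached the lowest of day 7. The call of Mmp9 was lost with the distance covariate, with only the compared groups and without both arrays that stand apart. It was also lost without replicate 12, 14 or 15 of day 7 or replicate 15, 17 or 20 of day 14.

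**Figure D3:**
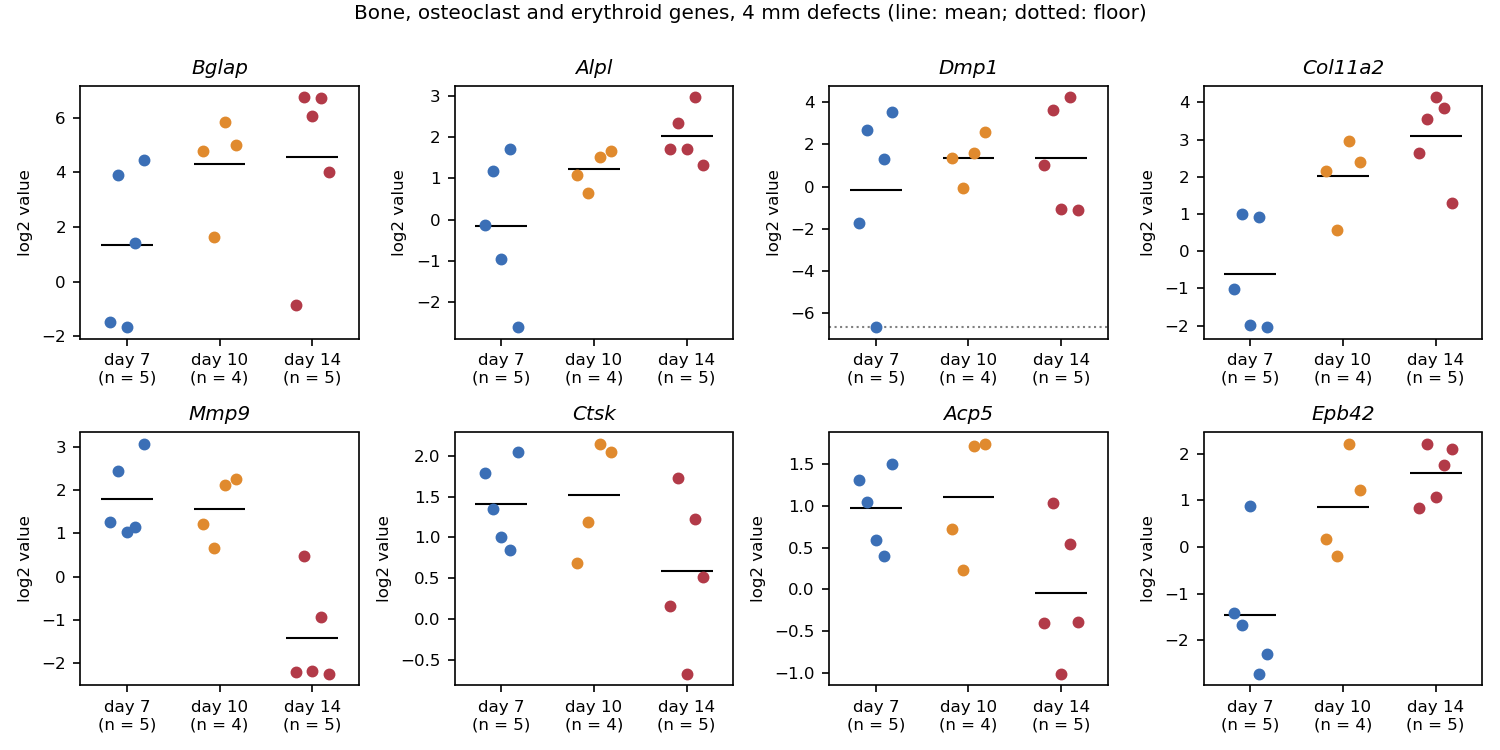
Log2 values of Bglap, Alpl, Dmp1, Col11a2, Mmp9, Ctsk, Acp5 and Epb42 on each array of 4 mm defects (points) with group means (lines); the dotted line is the floor. Bglap at day 14 reaches from -0.84 to 6.73, and Mmp9 at day 14 lies below every array of day 7.

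A second rule, added after the data had been seen, asked for a call as deposited and with arrays centred but not after quantile normalization. It gave 128 genes (0.801%), 40 higher (0.25%) and 88 lower later (0.551%), of which 59 had floor values among the 14 arrays. Without both arrays that stand apart it gave 18. Most of the list members below were lost then, so that they are given as values.

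Of 18 fibroblast and wound matrix genes 2 were lower by this rule, Col12a1 and the contractile gene Tagln (-1.68, adjusted p = 0.037 in limma). Of 18 macrophage genes 1 was lower, Gpnmb, a glycoprotein of macrophages and osteoclasts (-1.69, 0.030). Mcm6 of the replicative helicase was the member lower among 22 cell cycle genes (-1.70, 0.039). Cebpa of 11 adipocyte genes (-3.57, 0.022) and Enpp1 of 22 osteoblast genes (-1.61, 0.033) were also lower. Cebpa was at the floor on 2 arrays of day 14, so that its size rests partly on the floor, and its groups overlapped. Enpp1 makes pyrophosphate, an inhibitor of mineralization.

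Higher by this rule were Col11a2, a collagen of cartilage also made by osteoblasts (3.24, adjusted p = 0.031 in limma), the red cell membrane gene Epb42 (2.71, 0.032), the cytotoxic granule gene Nkg7 (2.37, 0.020) and the B cell receptor gene Cd79a (5.49, 0.022). Each was the 1 member of its list higher by this rule, beside 0.25% of all genes. Of 16 cartilage genes 8 had a higher and 8 a lower mean later. For 16 T and natural killer cell genes the counts were 10 and 6, and for 8 B and plasma cell genes 6 and 2. All 12 erythroid and marrow genes had a higher mean later, with 3 of them at the upper limit. These counts are as deposited, where 4632 of all 15974 genes had a higher and 11339 a lower mean later. Cd79a was at the floor on 4 of 5 arrays of day 7 and on 2 later arrays. Epb42 was -2.71 to 0.88 at day 7 and -0.18 to 2.21 later. Ftl1 and Ftl, the ferritin light chain, passed this rule too, but no size is given for them. Ftl1 was at the upper limit on 4 of 5 arrays of day 7 and on all 9 later arrays, and Ftl on 4 of day 7 and 4 later, and the limit itself differed between the groups.

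At day 14 alone the second rule marked 7 of 18 macrophage genes and 6 of 18 fibroblast genes as lower than at day 7. It also marked 3 of 13 osteoclast genes (Atp6v0d2, Dcstamp and Mmp9), beside 3.91% of all genes. Without both arrays that stand apart 2 macrophage genes, 1 fibroblast gene (Col12a1) and 1 osteoclast gene (Mmp9) passed this rule as lower. In that setting 139 of all 15974 genes were lower.

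Over 34 lists, the medians of the erythroid and marrow list (1.22 as deposited, 12 genes) and the B and plasma cell list (0.76, 8 genes) were highest among blood lineages, and that of the cell cycle list (-1.08, 22 genes) was lowest. The median of all genes was -0.58 as deposited, -0.04 centred and -0.17 after quantile normalization. The brain list also had a high median (0.91, 13 genes). Its score per array reached from -3.21 to 0.65 at day 7 and from -3.27 to 3.33 later, highest on replicate 17 of day 14, and its own part in the results was not tested. A fit with the brain and muscle scores together as covariates gave 17 calls. None of these lists was set against chance.

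**Figure D4:**
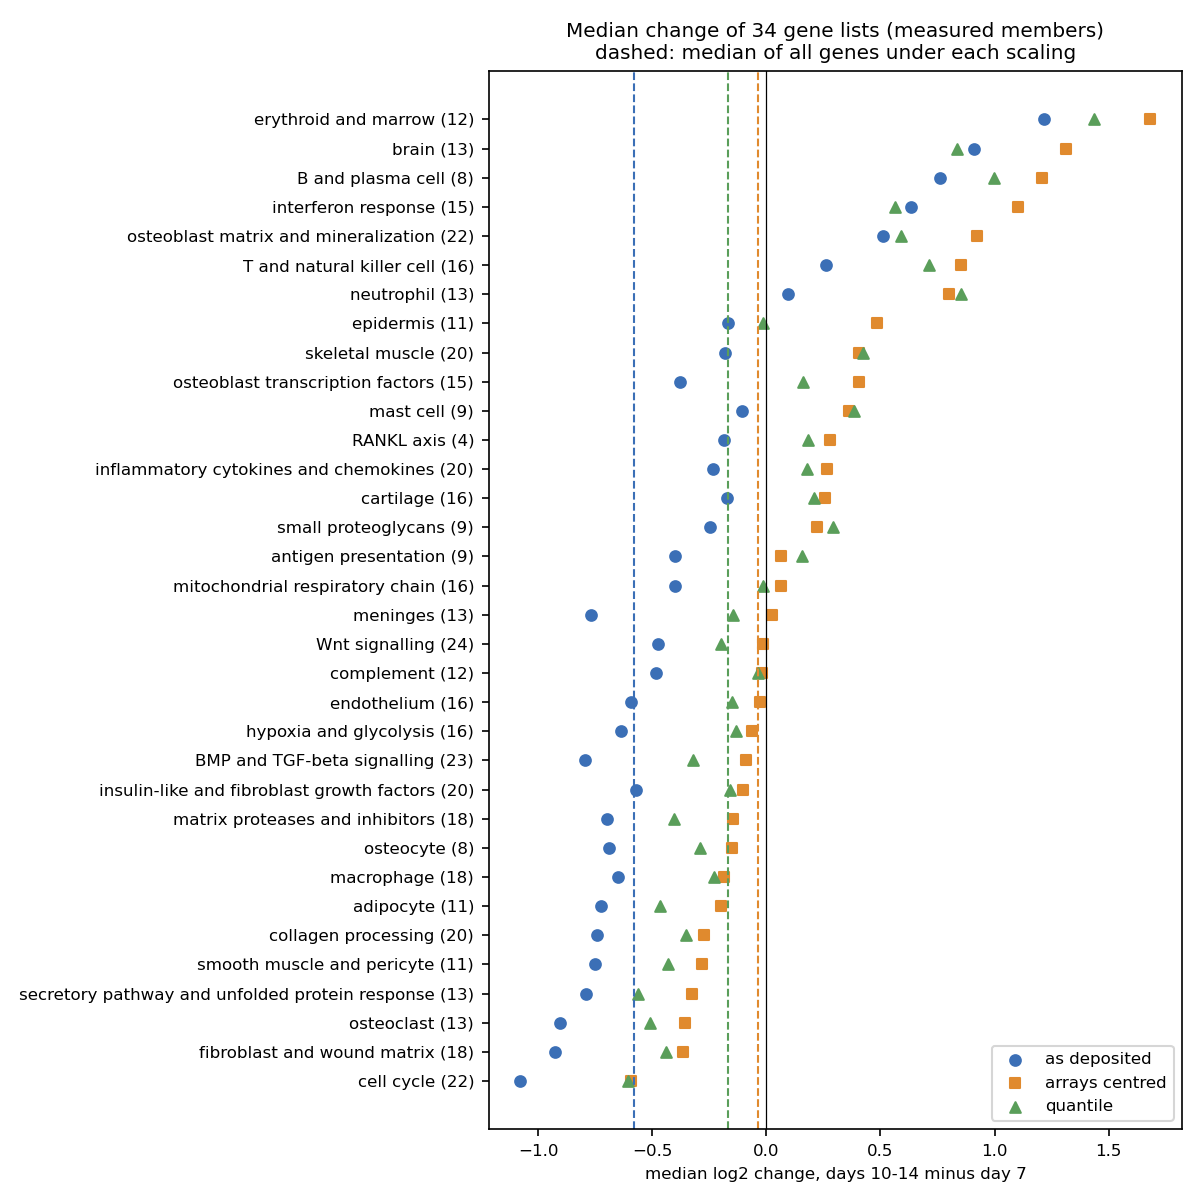
Median log2 change of the measured members of 34 gene lists, days 10 and 14 minus day 7 in 4 mm defects, under 3 scalings (points); dashed lines are the medians of all genes under each scaling (-0.58, -0.04 and -0.17). The erythroid and marrow list lies highest and the cell cycle list lowest as deposited.

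Set against the same interval in 8 mm defects (5, 6 and 6 arrays), no gene was called in the difference between sizes (0.0%); limma gave 1738 genes at an unadjusted p under 0.05 as deposited and 2 after adjustment (0.0125%). For Rgs5 the change was -1.86 in 4 mm and 0.10 (SE 0.40) in 8 mm defects, a difference of -1.96 (SE 0.58, adjusted p = 0.18 in limma). For Gpc4 it was -2.81 and 0.07, a difference of -2.88 (SE 0.79, adjusted p = 0.16). The median difference between sizes over all genes was itself -0.48 as deposited and 0.04 centred. With arrays centred the differences were -1.45 for Rgs5 and -2.14 for Gpc4. For Scamp5 the changes were 2.55 and 1.70, a difference of 0.85 (SE 0.76, adjusted p = 0.65), and for Bglap 3.11 and 3.76, a difference of -0.65 (SE 1.41, adjusted p = 0.87). None of the 14 genes was called as different between sizes, and the standard errors leave room for differences in either direction for Scamp5 and Bglap. At day 7 replicates 10 and 12 of 8 mm had brain scores of 4.27 and 4.78, against at most 0.65 in 4 mm. Muscle scores of replicates 12 and 13 of 8 mm were 1.25 and 2.35, against at most -1.70. A fit with both scores as covariates also gave 0 calls between sizes. Their part in single differences was not tested.

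**Figure D5:**
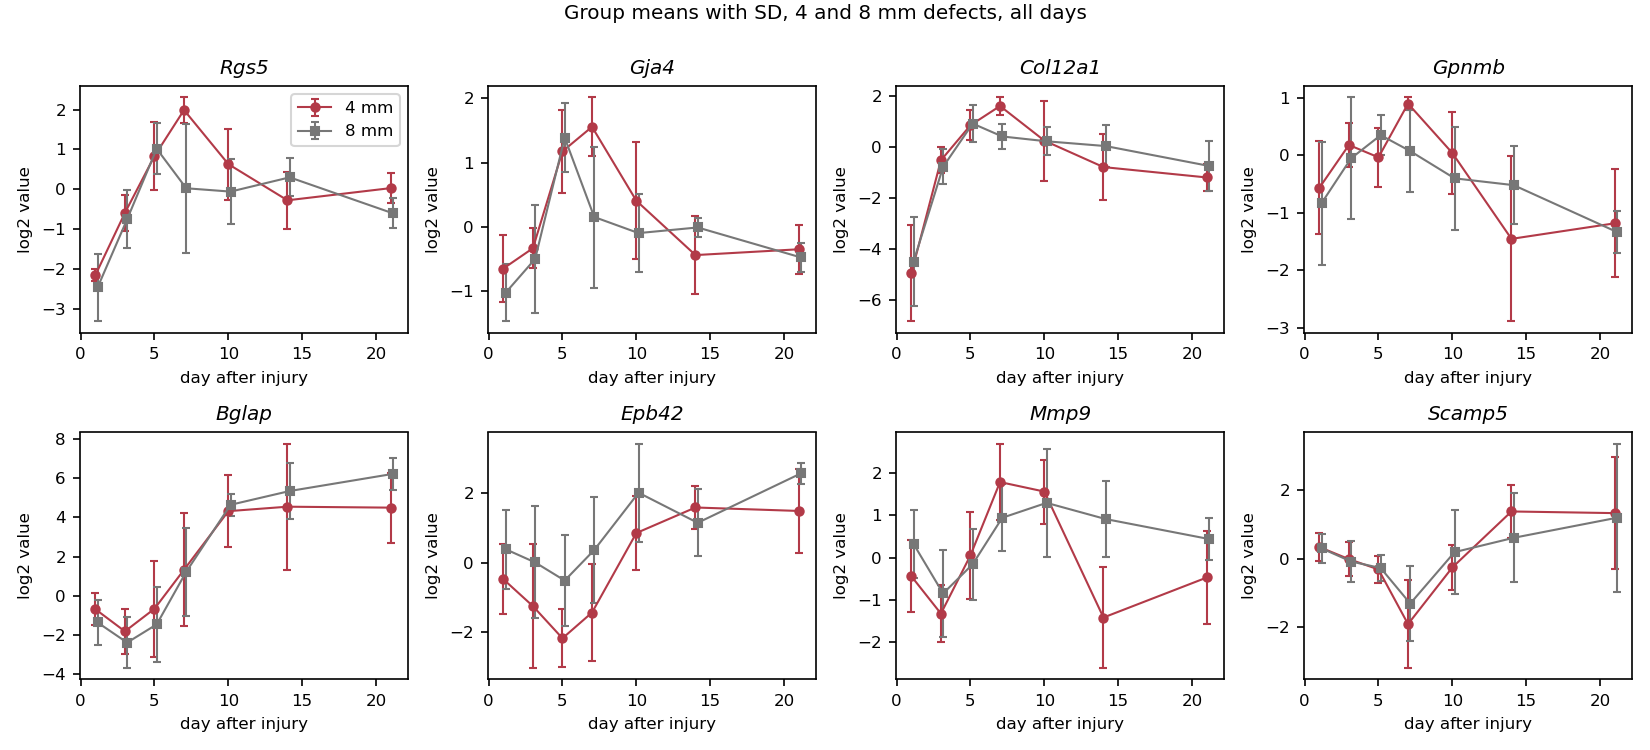
Mean log2 value with SD of 8 genes on each day after injury in 4 mm and 8 mm defects (3 to 12 arrays a group). In 4 mm defects Rgs5 is highest at day 7 (1.99), where the 8 mm mean is 0.02.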

How the data were processed

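The deposited table gives a linear ratio per probe and array, relative to the probe's median, for 41090 probes. For 87.8% of them the median over the 93 arrays was about 1. No label or header names the scanner, the background correction or the scaling. log2 values of these deposited ratios were used with no pseudocount. Symbols came from the platform annotation and RefSeq, and the probe with the largest interquartile range stood for a gene. Groups came from the titles. limma 3.58.1 in R 4.3.3 fitted 14 group means over all 93 arrays; a gene was called under 3 scalings. After centring and quantile normalization (over 1 probe a gene) a floor common to all arrays was set again. Both steps are choices of the re-analysis, and fits without them were compared.

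The members and lists were chosen with earlier results of these data known. The rule with 2 scalings, the search for the upper limit, the distance covariate, the leaving out of 2 arrays, the 26 genes given by array and the choices after scaling were added after the data had been seen. Named genes were the called genes by size, up to 5 members of each list (or 2 with the smallest p), those of the later-day and size comparisons, and cell type markers; of these only part is printed. No 2 arrays were identical, each sample is 1 defect, and the number of arrays limits the precision. Rat numbers recur across days and between the 2 sizes at day 7. Among the 4 mm arrays 4 pairs with the same number deviated with correlations of -0.057 to -0.009, so the numbers were not taken as pairs. Arrays of different size with the same number were not compared in this way.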

Additional observations from a re-analysis of the deposited data

Results flagged for a closer look

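The arrays were checked for values far from their group, and 10 of 96 groups tested had one. This count was not set against chance, since values at the floor are tied. For Mertk and Cd79a below, the other arrays of the group were at the floor, and the value of Nkg7 is the floor itself. Array level was low at replicate 13 of day 7 (0.29) and replicate 10 of day 10 (-1.03). Replicate 17 of day 14 stood apart in interquartile range (1.59) and upper limit (1.78). Single genes stood apart on 1 array each: Acat1 on replicate 10 of day 10 (-1.89), Gpc4 on replicate 14 of day 7 (1.91), Mertk on replicate 18 of day 14 (-0.80), Cd79a on replicate 12 of day 7 (-4.43), Nkg7 on replicate 15 of day 7 (-6.64) and Tagln on replicate 17 of day 14 (-2.35).

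The change from day 7 to days 10 and 14 differed between 4 mm and 8 mm defects for Serpini1 by 7.44 and for Usp47 by -3.05 as deposited (limma adjusted p = 0.016 and 0.029), and neither was called in all 3 scalings. Over this interval the median change of the brain list was 0.91 in 4 mm and -2.32 in 8 mm defects. The part of brain tissue in these differences was not tested.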

How the results depend on the processing

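For days 10 and 14 against day 7 (14 calls), the count was 278 as deposited alone (52 higher, 226 lower), 301 with arrays centred alone (174 higher, 127 lower), 128 with both, 144 with array weights, 59 with values under 0.25 raised, 9 for genes above the floor, 0 with only the compared groups, 0 with the less variable genes left out and 0 with the distance covariate. Without both arrays that stand apart it was 1, or 40 as deposited. Single arrays left out gave 0 to 32. For day 10 against day 7 (1 call) the counts in these settings were 32 as deposited, 23 centred, 8 with both, 5 for compared groups, 0 for less variable genes left out, above the floor or raised, 16 as deposited without both arrays, 2 with the floor not set again, and 1 to 23 with single arrays left out. For day 14 against day 7 (120 calls) they were 1180, 1155 and 740, 1 for compared groups, 4 for less variable genes left out, 368 with weights, 24 above the floor, 264 raised, 12 with the covariate, 34 without both arrays (194 with 2 scalings, 332 as deposited), and 32 to 154 with single arrays left out. For day 14 against day 10 (36 calls) they were 359, 629 and 267, 7 for compared groups, 0 for less variable genes left out or above the floor, 13 raised, 70 with the floor not set again, 6 without both arrays (61 and 159), and 13 to 81 with single arrays left out. The difference between sizes (0 calls) gave 2 as deposited, with or without both arrays, and 0 to 0 with single arrays left out.

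With the rat number as a replicate block the counts were 5, 75 and 9 for days 10 and 14 and for day 14 against days 7 and 10; the labels do not tie the numbers to shared animals across days. The change of Ctsk turned to 0.064 centred and 0.18 with the covariate, those of Dmp1 (-0.11 to 2.43 with single arrays left out) and Ibsp (-0.35 to 1.37) turned without replicate 13 of day 7, and that of Sp7 was 0.31 without both arrays. Over the 150 genes under the naming rule, 28 changed sign in at least 1 of 33 settings (99 of 4821 values), none of them a called gene. The causes were not tested. Signal over background is unknown, and values at the floor have no order.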
